A study of Homo sapiens with 6 samples.

Results

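The genes described here switch off signalling through the kinase ERK, or read it out: dual-specificity phosphatases (DUSP4, DUSP5, DUSP6), Sprouty proteins (SPRY1, SPRY2, SPRY4), SPRED proteins (SPRED1, SPRED2) and ETS transcription factors of the PEA3 type (ETV1, ETV5). They were listed by symbol, and each gene was represented by its brightest probe set, by the mean of the 6 arrays, a choice that does not use the culture groups. Of the 10 genes, 7 were measured, among 14884 genes in all. SPRY1, SPRED1 and SPRED2 carried no symbol in the annotation used and are not analysed here. The list was drawn up with earlier results of these data known, so its counts of risers are descriptions and not independent evidence.

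ERK is the last kinase of the chain from receptor tyrosine kinases through Ras, RAF and MEK. Active ERK raises the transcription of its own inhibitors: DUSP proteins remove the activating phosphates from ERK, whereas Sprouty and SPRED proteins act at the level of receptors, Ras and RAF. The transcripts of this feedback loop and of the PEA3 factors are widely used as a readout of ERK pathway output in carcinoma cells, which, like SKOV3, often carry altered growth factor receptors.

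RNA was measured in SKOV3, a human ovarian carcinoma line, cultured for 11 days in 15% serum, with 1 array per sample and 100 ng of total RNA each. The control cells grew on attachment plates (2D, n = 3). The other cells received 0.015% (w/v) of the additive FP001 on low-attachment plates (3D, n = 3), which is known here by its code name alone. Plate and additive changed together and cannot be told apart, all samples come from 1 cell line, and the labels do not say that replicates are separate cultures, so the p-values cover the spread between these samples alone, which may be technical. Levels are the deposited log2 values, comparable between arrays for 1 gene but not between genes, and a log2 change of 1 is a doubling. Fewer cells of one kind and less RNA per cell cannot be told apart in such bulk samples.

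Of the 14884 genes 1488 changed (limma, Benjamini-Hochberg adjusted p below 0.05). Arrays correlated across genes at 0.991 to 0.993 within 2D, 0.988 to 0.995 within 3D and 0.975 to 0.982 between the groups, and the lower 3D values were those of 3D replicate 1. Of 10 ovarian carcinoma markers 7 were measured and 3 rose, with an array mean over the list of 7.19 to 7.26 in 2D and 7.92 to 8.12 in 3D. KRT19 rose by 2.70 (limma adjusted p = 0.000495), the 17th highest rise of all genes measured. EPCAM rose by 1.76 (adjusted p = 0.00016) and CLDN4 by 0.64 (adjusted p = 0.0158). KRT8, KRT18, WT1 and the lineage factor PAX8 did not pass, and PAX8 read 10.18 in 2D and 10.34 in 3D. Of 10 leukocyte markers 5 were measured, with array means of 5.31 to 5.46 in 2D and 5.68 to 5.85 in 3D, and CD68 and LYZ rose. Of 10 fibroblast and endothelial markers 4 were measured, with array means of 3.74 to 3.80 in 2D and 3.99 to 4.22 in 3D, and PECAM1 rose. No measured marker of these lists fell, and the part of these marker shifts in the results that follow was not tested.

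Of the 7 feedback genes 4 rose in 3D, 0 fell and 3 did not pass. They were the ERK phosphatase gene DUSP6, the Sprouty genes SPRY4 and SPRY2, and ETV1. Over all genes 5.23% rose and 4.77% fell by the same test; because the genes were listed with these results known, nothing is read from the difference. The median change was 1.08 on the log2 scale, beside -0.0074 over all genes. For 5 of the 7 genes all 3D arrays lay above all 2D arrays, which was so for 13.8% of all genes.

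DUSP6 encodes the cytosolic phosphatase that acts on ERK with high specificity. Its level was 7.03, 7.51 and 7.27 in 2D replicates 1 to 3 and 9.53, 9.78 and 9.88 in 3D replicates 1 to 3. The groups were wide apart, with the lowest 3D array 2.02 above the highest 2D array. The change was 2.46 ± 0.15 (SE, n = 3 per group; limma adjusted p = 0.000139), or 5.49-fold, the 22nd highest rise of all genes measured. Without single arrays it ran from 2.34 to 2.58.

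DUSP5 encodes a nuclear ERK phosphatase. Its 2D levels of 6.75, 7.38 and 7.10 spanned its 3D levels of 7.17, 7.20 and 7.23. The change was 0.12 (95% interval -0.24 to 0.49; limma adjusted p = 0.718). The 3D arrays were thus close together, with an SD of 0.03 beside 0.32 in 2D. DUSP5 is the only measured gene of the 7 with a second probe set, which was dimmer (2D mean 4.97, 3D mean 4.57) and lay lower in all 3D arrays. That probe set gave -0.39 ± 0.16 (SE; adjusted p = 0.364 over all probe sets), so the direction for DUSP5 is not settled by these data.

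DUSP4 encodes a nuclear phosphatase of ERK and the related kinases JNK and p38. It read 6.03, 6.33 and 6.51 in 2D and 6.59, 6.33 and 6.34 in 3D. The groups overlapped, and the highest array was 3D replicate 1. The change was 0.13 (95% interval -0.21 to 0.47; limma adjusted p = 0.672), and without 3D replicate 1 it was 0.05. The intervals of DUSP4 and DUSP5 lie below that of DUSP6, which ran from 2.11 to 2.81.

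**Figure D1:**
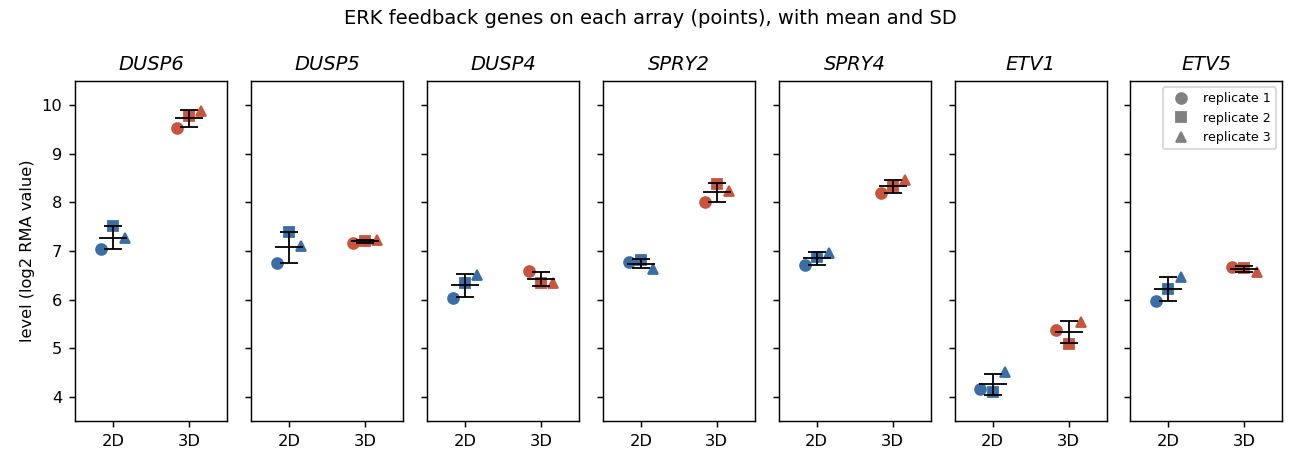
Level of the 7 measured ERK feedback genes on each array, as deposited log2 values. Blue points are 2D arrays, red points are 3D arrays, marker shapes give the replicate, and black bars are the mean and SD of 3 arrays. DUSP6, SPRY2, SPRY4, ETV1 and ETV5 show no overlap between groups, whereas DUSP5 and DUSP4 do; levels of different genes are not comparable.

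Sprouty proteins are inhibitors that ERK signalling induces and that restrain the activation of Ras and RAF below growth factor receptors. SPRY4 read 6.71, 6.88 and 6.96 in 2D and 8.19, 8.34 and 8.46 in 3D. All 3D arrays stood at least 1.23 above every 2D array. The change was 1.48 ± 0.11 (SE, n = 3 per group; limma adjusted p = 0.000303), or 2.80-fold.

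SPRY2 gave nearly the same picture. It read 6.77, 6.81 and 6.64 in 2D and 8.0, 8.38 and 8.23 in 3D, with a gap of 1.19 between the groups. The change was 1.47 ± 0.12 (SE; limma adjusted p = 0.000433), or 2.76-fold. In order of their rise among all genes SPRY4 was number 106 and SPRY2 number 110. Their 95% intervals, 1.22 to 1.75 and 1.18 to 1.75, covered nearly the same range.

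ETV1 and ETV5 are transcription factors that bind ETS sites in genes induced by growth factors. ETV1 read 4.16, 4.10 and 4.50 in 2D and 5.37, 5.09 and 5.54 in 3D. Its 2D levels lay near the array medians of 4.30 to 4.37, and the groups were 0.60 apart. The change was 1.08 ± 0.16 (SE, n = 3 per group; limma adjusted p = 0.00486), or 2.12-fold. ETV5 read 5.97, 6.21 and 6.46 in 2D and 6.67, 6.66 and 6.57 in 3D. Its groups did not overlap either, but the gap was only 0.10. The change of 0.42 (95% interval 0.10 to 0.73) did not pass (limma adjusted p = 0.104). The third PEA3 factor gene, ETV4, read 6.18, 6.32 and 6.10 in 2D and 7.0, 6.97 and 7.10 in 3D. It rose by 0.82 ± 0.10 (SE; limma adjusted p = 0.00216).

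In order of change the 7 genes ran DUSP6, SPRY4, SPRY2, ETV1, ETV5, DUSP4 and DUSP5. The interval of DUSP6 lay above those of all the others. From SPRY4 downwards each gene's interval overlapped that of the next. 3D replicate 1 lay below the mean of the other 3D arrays by 0.30 for DUSP6, 0.31 for SPRY2 and 0.21 for SPRY4, and above it by 0.05 for ETV1 and 0.06 for ETV5. Without it the changes were 2.56 for DUSP6, 1.57 for SPRY2, 1.55 for SPRY4, 1.07 for ETV1 and 0.40 for ETV5. The same 4 genes rose in every fit without 1 array; the highest adjusted p among these was 0.0272, for ETV1.

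**Figure D2:**
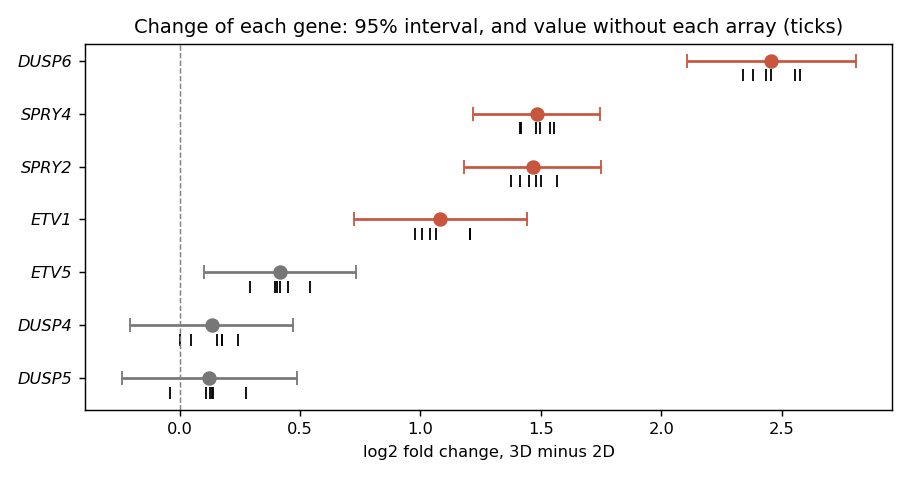
Change of each gene as log2 fold change, 3D minus 2D. Points are estimates with 95% intervals from limma (red where the adjusted p is below 0.05, grey otherwise), and black ticks below them are the estimates without each array in turn. DUSP6 stands apart at 2.46, the Sprouty genes lie together at 1.48 and 1.47, and the DUSP4 and DUSP5 intervals include 0.

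The windows around the transcription start of the 4 genes that rose are shown because these genes rose together. They come from RefSeq on GRCh38.p14, 250 bases before to 50 bases after the start, and where a gene has several windows (3 for SPRY2, 6 for ETV1) the one farthest upstream is given. Capitals mark CGGAA, a form of the ETS core, and the GC box GGGCGG on either strand. No CGGAA match overlaps a GC box, and in ETV1 neighbouring GC boxes overlap.
DUSP6 chr12:89352452-89352751, minus strand: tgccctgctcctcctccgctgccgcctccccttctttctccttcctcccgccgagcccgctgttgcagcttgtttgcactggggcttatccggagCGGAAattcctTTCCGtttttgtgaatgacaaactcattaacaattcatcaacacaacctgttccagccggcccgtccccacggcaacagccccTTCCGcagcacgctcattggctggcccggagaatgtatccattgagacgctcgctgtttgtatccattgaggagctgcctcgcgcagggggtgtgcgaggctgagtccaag
SPRY4 chr5:142324198-142324497, minus strand: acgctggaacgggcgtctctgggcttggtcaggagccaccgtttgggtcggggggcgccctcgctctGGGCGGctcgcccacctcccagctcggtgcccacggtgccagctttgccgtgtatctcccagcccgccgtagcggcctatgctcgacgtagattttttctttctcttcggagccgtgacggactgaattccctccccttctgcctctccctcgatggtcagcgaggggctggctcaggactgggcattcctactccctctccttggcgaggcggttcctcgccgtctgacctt
SPRY2 chr13:80341077-80341376, minus strand: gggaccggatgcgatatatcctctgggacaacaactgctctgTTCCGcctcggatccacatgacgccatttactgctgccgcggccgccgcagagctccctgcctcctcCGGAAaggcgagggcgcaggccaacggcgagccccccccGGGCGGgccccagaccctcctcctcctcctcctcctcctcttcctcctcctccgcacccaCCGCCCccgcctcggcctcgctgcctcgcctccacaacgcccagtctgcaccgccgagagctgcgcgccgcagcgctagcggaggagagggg
ETV1 chr7:13991376-13991675, minus strand: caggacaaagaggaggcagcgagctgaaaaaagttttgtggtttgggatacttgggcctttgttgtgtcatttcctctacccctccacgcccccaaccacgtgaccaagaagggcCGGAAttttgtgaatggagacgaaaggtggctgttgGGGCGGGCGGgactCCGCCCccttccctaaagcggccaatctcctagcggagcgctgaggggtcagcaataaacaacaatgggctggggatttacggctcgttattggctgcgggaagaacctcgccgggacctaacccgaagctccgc

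The ETS core form CGGAA occurred 3 times in the DUSP6 window, 2 times in that of SPRY2, 1 time in that of ETV1 and 0 times in that of SPRY4. Core forms with another base before GGAA were not part of this count, so the 0 for SPRY4 does not exclude them. Of 35116 RefSeq windows of this length 34.9% hold CGGAA. It was searched after the longer ETS forms CCGGAAG (10.3% of windows) and CAGGAAG (12.7%) had given 0 matches in the 4 windows. The AP-1 site TGACTCA (4.95%), the CRE TGACGTCA (1.85%) and the CArG box (1.29%) also gave 0 matches. The GC box occurred 3 times in ETV1, 2 times in SPRY2, 1 time in SPRY4 and 0 times in DUSP6, and 45.0% of windows hold it. These counts describe letters in the windows and do not show binding.

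Of the measured genes next to these 7 on the chromosome, 1 on either side, 3 rose and 1 fell (5.23% and 4.77% of all genes). POC1B-GALNT4, beside DUSP6, rose from 7.14 to 8.59, a change of 1.46 ± 0.09 (SE, n = 3 per group; limma adjusted p = 0.000171). On the other side of DUSP6, LINC02458 gave -0.03. SCIN, beside ETV1, rose by 1.62 ± 0.21 (adjusted p = 0.00276), and KIF13B, beside DUSP4, rose by 0.73 ± 0.09 (adjusted p = 0.00234), although DUSP4 itself did not pass. SMC3, beside DUSP5, fell by 0.37, a call lost without any array other than 3D replicate 1 (adjusted p up to 0.154), when arrays were centred on their medians and with all probe sets tested singly. The paralogs NDFIP2 and NDFIP1, which adjoin SPRY2 and SPRY4, gave 0.32 and 0.57 (adjusted p = 0.0849 and 0.15). These neighbours were looked up after the values of the 7 genes were known.

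The genes whose profiles over the 6 arrays came nearest to that of DUSP6, by Euclidean distance of values centred on each gene's mean, were ASRGL1 (distance 0.20), AKAP19 (0.35), CHGA (0.36), CLDN10-AS1 (0.36) and LIX1 (0.44). SPRY2 and SPRY4 lay at 1.27 and 1.22 from DUSP6. Nearest to SPRY4 were STK32A (0.19), ADCYAP1R1 (0.20), QRFPR (0.21), POC1B-GALNT4 (0.21) and TJP3 (0.22), and SPRY2 lay at 0.35. With 2 groups of 3 arrays this distance chiefly ranks genes by the size of their rise.

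The other genes of the pathway were grouped by role. Of 117 listed genes 85 were measured, and 9 rose, 14 fell and 62 did not pass, with a median of -0.02. Over all genes 5.23% rose and 4.77% fell. The balance of risers and fallers turned with the setting: 8 rose and 6 fell with all probe sets tested singly or without 3D replicate 3, and 10 rose and 8 fell without 2D replicate 2. Without 2D replicate 3 or 3D replicate 2, 8 rose and 7 fell in each case. Of 12 further dual-specificity phosphatase genes, all measured, 1 rose and 0 fell, with a median of 0.05. The riser was DUSP2, a nuclear phosphatase of MAP kinases, from 5.36 ± 0.02 to 6.02 ± 0.14 (SD, n = 3), a change of 0.66 ± 0.10 (SE; limma adjusted p = 0.00703). The stress-inducible DUSP1 read 9.03, 9.83 and 9.37 in 2D and 9.16, 9.55 and 9.60 in 3D. Its groups overlapped, the change was 0.03 ± 0.21 (SE; adjusted p = 0.961), and the sign turned without 2D replicate 1 or 3D replicate 2 or 3. Of the nearest relatives of the 7 genes, SPRED3 was not measured, and SPRY3 and ETV4 both rose. SPRY3 read 6.32, 6.52 and 6.26 in 2D and 6.94, 7.17 and 7.35 in 3D, a rise of 0.78 ± 0.13 (SE; adjusted p = 0.00979).

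At the receptor level, 6 of 10 listed feedback regulator genes were measured, and 1 rose and 2 fell (5.23% and 4.77% of all genes rose and fell). Not all of these genes need act as inhibitors, so the counts do not give a direction for receptor inhibition. LRIG1, which promotes the breakdown of EGF family receptors, rose by 0.60 ± 0.12 (SE, n = 3 per group; limma adjusted p = 0.0215). UBASH3B, a phosphatase of the TULA family, fell by 0.80 ± 0.10 (adjusted p = 0.00225). IL17RD, the FGF signalling inhibitor also called SEF, fell by 0.50 ± 0.11 (adjusted p = 0.0273). The calls of LRIG1 and IL17RD were lost without any array other than 3D replicate 1, with adjusted p up to 0.0832 and 0.102, and with all probe sets tested singly.

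In the cascade itself, the counts are to be read beside the 5.23% of all genes that rose and the 4.77% that fell. Of 12 measured RAF, MEK, ERK and downstream kinase or scaffold genes 0 rose and 1 fell, MKNK2, an ERK-activated kinase of translation factor eIF4E (-0.41 ± 0.10 SE, n = 3 per group; limma adjusted p = 0.0427). MAPK3, which encodes ERK1, gave 0.33 ± 0.11 (adjusted p = 0.109); it passed with a trended robust variance. Of 13 measured adaptor, exchange factor and Ras genes 0 rose and 2 fell, the adaptor gene SHC1 (-0.44 ± 0.09, adjusted p = 0.0234) and RRAS (-0.45 ± 0.11, adjusted p = 0.0372). Of 5 measured genes for Ras GTPase-activating proteins 1 fell, RASA3 (-0.47 ± 0.11, adjusted p = 0.04). MKNK2 and SHC1 lost the call without any array other than 3D replicate 1 (adjusted p up to 0.157 and 0.0854), RASA3 without any array other than 2D replicate 2 (up to 0.147), and RRAS without any array (up to 0.126) and when arrays were centred on their medians. All 4 also lost it with all probe sets tested singly.

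Among 13 other ETS factor genes measured, 2 rose and 2 fell (5.23% and 4.77% of all genes), with a median of -0.14. SPDEF, an ETS factor of secretory epithelium, read 5.64, 5.58 and 5.60 in 2D and 7.43, 8.05 and 8.04 in 3D. It rose by 2.24 ± 0.17 (SE, n = 3 per group; limma adjusted p = 0.000299). EHF, an epithelial ETS factor, rose by 2.06 ± 0.14 (adjusted p = 0.000221). ETS1, a factor that ERK phosphorylates, read 8.37, 8.25 and 8.49 in 2D and 6.97, 6.75 and 6.88 in 3D, and fell 2.83-fold (adjusted p = 0.00025). FLI1 fell by 0.78 ± 0.12 (adjusted p = 0.00694).

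**Figure D3:**
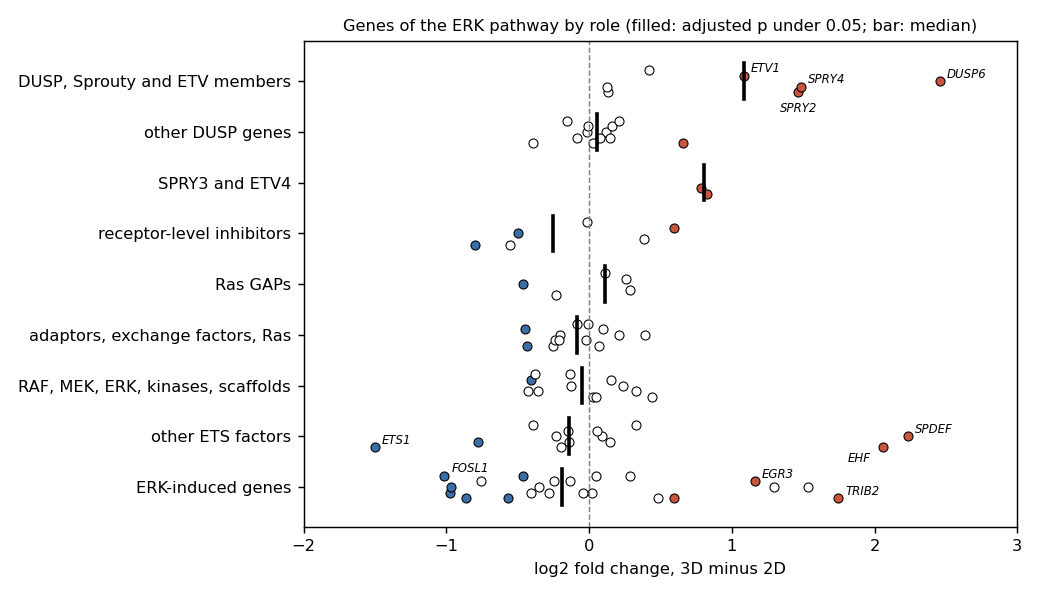
Change of each measured gene by role in the ERK pathway, as log2 fold change, 3D minus 2D. Row names are list labels, and not all genes of the receptor-level row need act as inhibitors. Each point is 1 gene, filled where its limma adjusted p is below 0.05 (red higher, blue lower), vertical spread has no meaning, and the black bar is the median of the row. The 7 feedback genes, listed with earlier results known, lie at 0.12 to 2.46, and the kinase and scaffold genes between -0.43 and 0.44. Other rows are wider, with the other ETS factor genes between -1.50 and 2.24 and the ERK-induced genes between -1.02 and 1.75.

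Of 22 measured genes that ERK activity is known to induce, 3 rose, 6 fell and 13 did not pass (5.23% and 4.77% of all genes rose and fell), and the median was -0.19. TRIB2, a pseudokinase, rose by 1.75 ± 0.23 (SE, n = 3 per group; limma adjusted p = 0.00354), and the early growth response factor EGR3 by 1.16 ± 0.16 (adjusted p = 0.00362). With the mean of all its probe sets the rise of TRIB2 was smaller, at 1.23, and still passed. FOSL1, an AP-1 subunit, fell by 1.02 ± 0.12 (adjusted p = 0.00225), and the chemokine gene CXCL8 by 0.98 ± 0.15 (adjusted p = 0.00685). The others, named after their values were seen, were the cyclin gene CCND1 (0.59), which rose, and MYC (-0.97), the EGF receptor ligand gene HBEGF (-0.87), EPHA4 (-0.57) and EPHA2 (-0.46), which fell. Leaving out 1 array ended the calls of HBEGF (3D replicate 3, adjusted p = 0.0518), EPHA2 (2D or 3D replicate 2 or 3, up to 0.1) and EPHA4 (any array other than 3D replicate 1, up to 0.158), and EPHA4 also lost it after a repeated quantile normalization. All 3 lost it with all probe sets tested singly.

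The immediate early genes FOS and EGR1, chosen after their values were seen, had wider spreads within 2D (SD 0.70 and 0.94) than any of the 7 feedback genes (SD up to 0.32). FOS, an AP-1 subunit, read 5.93, 7.10 and 5.85 in 2D and 7.08, 8.09 and 8.30 in 3D. Its 2D replicate 2 thus lay just above its 3D replicate 1. The change was 1.53 ± 0.41 (SE, n = 3 per group; limma adjusted p = 0.0568). It passed without 2D replicate 2 (1.94, adjusted p = 0.0267) or without 3D replicate 1 (1.90, adjusted p = 0.0215), and under several other settings. EGR1, a zinc finger factor, read 9.01, 10.73 and 9.19 in 2D and 10.40, 11.20 and 11.22 in 3D. Its change of 1.30 ± 0.45 did not pass (adjusted p = 0.127), but it did without 2D replicate 2 (1.84, adjusted p = 0.0126). Not all ERK-induced genes that did not pass leaned upward. JUN gave -0.75 ± 0.20 (adjusted p = 0.0582) and IER3 -0.35 (adjusted p = 0.0547), both with all 3D arrays below all 2D arrays. EREG (-0.41), MCL1 (-0.28), TFPI2 (-0.25), FOSB (-0.13) and VGF (-0.04) also lay below 0. Above 0 lay IER2 (0.02), JUNB (0.05), TRIB1 (0.29) and LIF (0.48). Among the 7 feedback genes 2D replicate 2 was the highest 2D array for 3 (DUSP6, DUSP5 and SPRY2) and 2D replicate 3 for the other 4 (DUSP4, SPRY4, ETV1 and ETV5), so no array led throughout. For DUSP6 this spread was small beside the distance between the groups, with an SD of 0.24 in 2D.

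**Figure D4:**
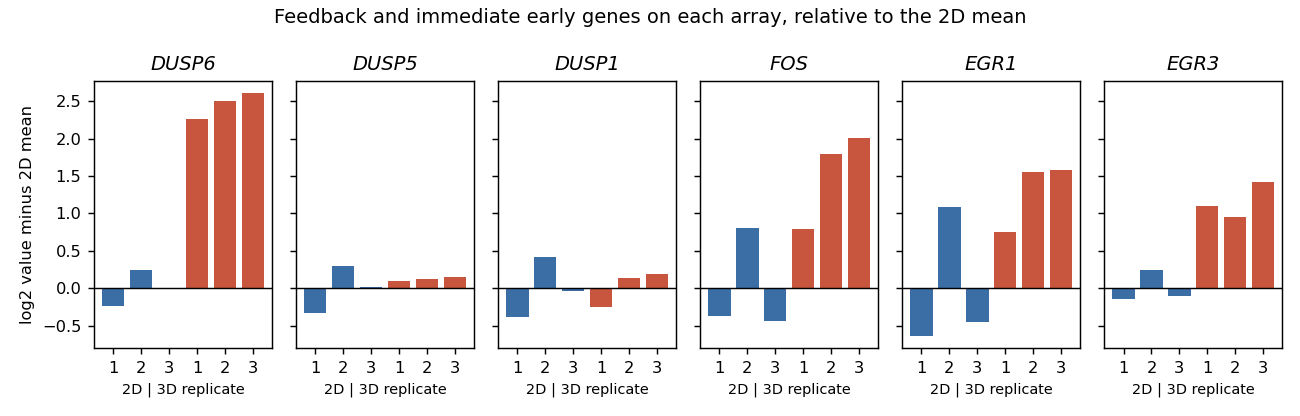
Level of DUSP6, DUSP5, DUSP1, FOS, EGR1 and EGR3 on each array minus the mean of the 2D arrays of that gene, as differences of log2 values. Blue bars are 2D replicates 1 to 3 and red bars are 3D replicates 1 to 3. The genes were chosen after their values were seen, and 2D replicate 2 is their highest 2D array, which is not so for DUSP4, SPRY4, ETV1 and ETV5. All 3D bars stand above it for DUSP6 and EGR3 and not for the other panels.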

How the data were processed

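Per the submitters' processing notes, the authors made the deposited log2 values with RMA, which corrects background, equalises array distributions and summarises probe sets; its version, filters and genome build were not given in the sources used here. This table holds 53617 probe sets on 6 arrays with values from 0.30 to 13.87, from which the log2 scale was inferred. RMA compresses the changes of dim probe sets, the table has no detection calls, and precision is limited by the number of arrays. The labels' protocol names a 3′ IVT kit, and the probes are annotated for a Human Gene ST array, a mismatch that was not resolved. Of the probe sets, 16098 had 1 symbol, 0 had several and 37519 had none. The gene identifiers of all these 16098 probe sets matched RefSeq (GRCh38.p14), which was used for symbols and neighbouring genes. The brightest probe set stood for each of 14884 genes.

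Group was fitted with limma 3.58.1 in R 4.3.3 (lmFit, eBayes), two-sided, with Benjamini-Hochberg adjustment over all genes and a threshold of 0.05. The fit was tested on simulated data. The members and lists were chosen with earlier results of these data known. Named were all measured members, up to 4 genes per list past the threshold, 8 fixed genes where measured, and the 5 nearest profiles to DUSP6 and SPRY4. The other measured ERK-induced genes, some chromosome neighbours and some cell type markers were also named, after their values were seen. Alternatives were a repeated quantile normalization, median centring, a filter on dim probe sets, other choices of probe set, all probe sets singly, blocking on the replicate number, a trended robust variance and leaving out each array.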

Additional observations from a re-analysis of the deposited data

How the results depend on the processing

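DUSP6, SPRY4, SPRY2 and ETV1 rose and DUSP4, DUSP5 and ETV5 did not pass under all 14 alternatives, so 4 of the 7 feedback genes passed in each. Not every alternative could move the estimates. All of the 7 but DUSP5 have 1 probe set, so other choices of probe set kept their values. The filter, all probe sets singly, the trended robust variance and the block left each estimate as it was and altered only its SE and adjusted p. The DUSP5 change turned to -0.14 with the mean of its probe sets, -0.39 with the more variable one and ran from -0.039 (without 2D replicate 1) to 0.28 (without 2D replicate 2) when single arrays were left out. DUSP1 ran from -0.16 (2D replicate 1 left out) to 0.24 (2D replicate 2 left out), and was -0.03 and -0.05 on leaving out 3D replicates 2 and 3. The genes called over the whole table numbered 1488, and 661 when all probe sets were tested singly, 760 with the replicate number as a block, and 775 to 1899 without single arrays. The other ERK pathway genes called numbered 23, and 14 with all probe sets tested singly, 36 with a trended robust variance, 16 with the block (9 higher, 7 lower) and 14 to 26 without single arrays. Whether the replicate numbers pair the samples is not settled by these data. Deviations of same-numbered arrays from their group means correlated at -0.28, -0.06 and -0.18 across genes. With so few arrays per group, these values cannot exclude pairing. The block lowered the SE of DUSP5, DUSP6, SPRY4 and ETV1 and raised that of DUSP4, SPRY2 and ETV5. It changed no call among the 7 feedback genes but ended those of SMC3, MKNK2, SHC1, RASA3, RRAS, IL17RD, EPHA2 and EPHA4. The cause of these shifts was not tested. Depth has no meaning for arrays, and signal over background was not analysed here.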
